A study of Homo sapiens with 6 samples.

Results

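KRT8, KRT18, KRT19, ESRP1, ESRP2 and EPCAM are genes of simple epithelial cells, and their transcripts were followed in 293T cells depleted of MLL2 or of PRMT1. Each symbol matched 1 gene identifier of the count files, so 6 of 60669 genes are described. The 6 genes were chosen with earlier results of these libraries known, among them the differences of KRT8 and ESRP2 from the control cells. Their levels and fold changes are therefore a description and carry no test. The 9 lists of related genes below were also written with earlier results known. A share called in a list that differs from that of all genes is likewise only a description.

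The cells were 293T, a transformed line derived from human embryonic kidney, and no treatment is given for any group. The groups were an MLL2 knockout made by CRISPR/Cas9, a PRMT1 knockdown made by a short hairpin RNA against PRMT1, and wild-type control cells, with 2 libraries each. The labels call the 2 libraries of a group biological replicates, and the p-values below measure the spread between these libraries. It is not stated whether the knockout came from a single clone, in which case traits of that clone and of the knockout cannot be told apart. The file headers name the control alignments WTshNT, the knockout alignments MKshNT and the knockdown alignments WTshPR, and the labels do not say if hairpins were also present in the other groups.

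Keratins are the intermediate filament proteins of epithelial cells. In simple, single-layered epithelia the type II keratin 8 pairs with the type I keratins 18 or 19, and a keratin without its partner is unstable. ESRP1 and ESRP2 are RNA-binding proteins that set the epithelial pattern of alternative splicing, for example the choice between the epithelial and mesenchymal exons of the growth factor receptor FGFR2. EPCAM is a transmembrane protein of epithelial cells that acts in adhesion, and its cleaved inner part can signal in the nucleus.

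The libraries held 20061471 to 22351532 counts in genes. PRMT1 stood at 406 and 425 CPM in the knockout, 38.2 and 34.9 CPM in the knockdown, and 306 and 318 CPM in the control cells, where CPM is the count per 1000000 of the library total times its TMM scaling factor. The name MLL2 has been used for KMT2B and for KMT2D. KMT2B stood at 7.11 and 7.35 CPM in the knockout, 13.4 and 26.7 CPM in the knockdown, and 6.73 and 7.52 CPM in the control. KMT2D stood at 20.7 and 24.2 CPM in the knockout, 37.7 and 95.4 CPM in the knockdown, and 22.4 and 17.0 CPM in the control. Neither transcript fell in the knockout, so neither checks that label, and both rose in the knockdown (1.49 ± 0.24 on the log2 scale, edgeR adjusted p = 3.06e-05 for KMT2B, and 1.76 ± 0.25, 8.4e-06 for KMT2D). Without knockdown replicate 2 these differences were 0.91 and 0.94. PRMT1 rose in the knockout (0.41 ± 0.08, edgeR adjusted p = 0.000891). Markers of other cell types were low: the summed CPM of 4 stratified epithelium markers, 1 of them at 0 throughout, ran from 0.0980 to 0.416 in the knockout, from 0.0438 to 0.0966 in the knockdown and from 0 to 0.0498 in the control. The sum of 6 neuronal and renal genes commonly read in this line was 233 and 236 CPM in the knockout, 135 and 145 CPM in the knockdown, and 495 and 487 CPM in the control. Its part in the differences of the epithelial genes was not tested. These are bulk libraries, so fewer cells of a kind and less RNA per cell cannot be told apart.

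Of the 6 genes, 4 passed the count filter (KRT8, KRT18, ESRP2 and EPCAM), which takes the group where a gene is high into account, and KRT19 and ESRP1 did not. Both knockout libraries lay below both control libraries for 5 of the 6, all but KRT19, as they did for 32.5% of the 17575 genes tested, and lay above them for 30.1%. By edgeR, 22.4% of genes tested were called changed in that comparison (10.3% higher and 12.1% lower). Both knockdown libraries lay below both control libraries for 4 of the 6, all but KRT19 and EPCAM, as they did for 38.5% of genes tested, and lay above them for 35.0%. By edgeR, 47.4% of genes tested were called there (22.2% higher and 25.3% lower). Between the depletions, both knockdown libraries lay above both knockout libraries for KRT8, ESRP2 and EPCAM and below them for KRT18, as they lay above for 34.9% and below for 35.1% of genes tested. By edgeR, 40.7% were called there (19.4% higher and 21.4% lower). Since the genes were picked on these differences, nothing is read from those counts. Both depletions were set against the same 2 control libraries.

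**Figure D1:**
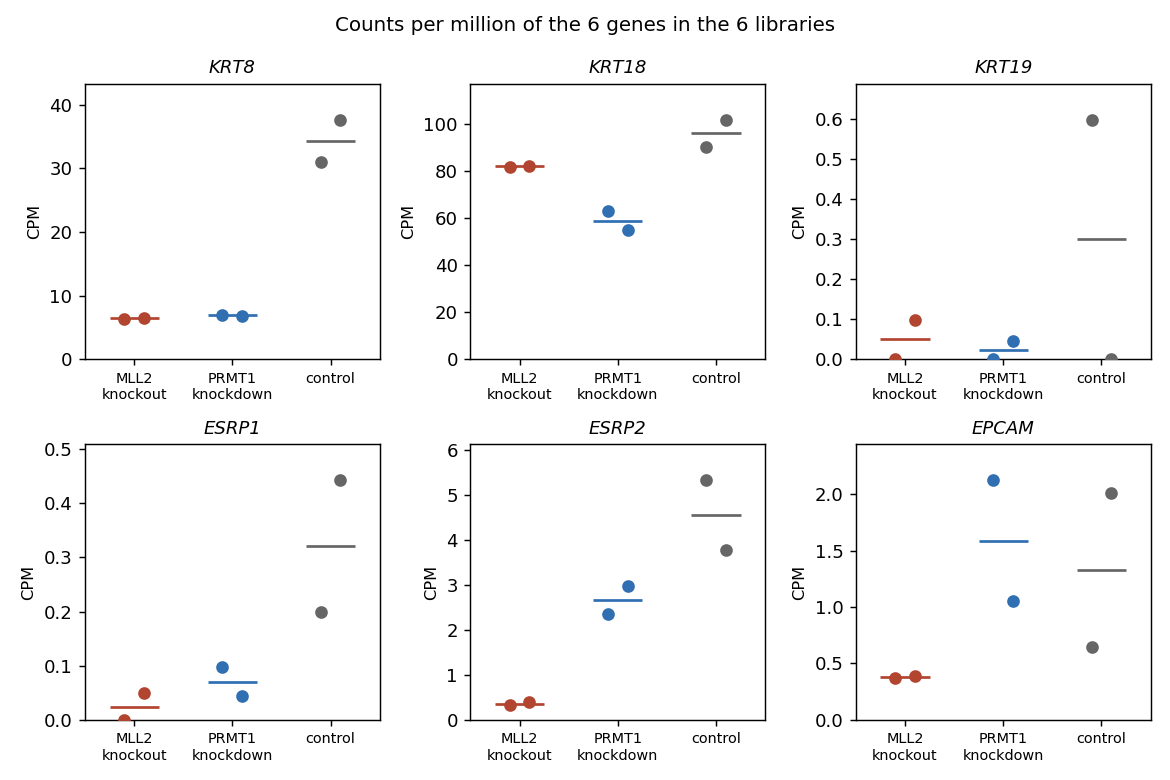
Levels in CPM (vertical axes, each starting at 0) of the 6 genes in the MLL2 knockout, PRMT1 knockdown and control libraries. Each point is 1 library and each line the mean of 2. KRT8 and ESRP2 lie lowest in the knockout, KRT18 in the knockdown, and EPCAM spreads widely in the knockdown and the control.

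KRT8 encodes keratin 8, the type II partner (ENSG00000170421.12, chr12:52897187-52949954 on hg38, minus strand, 6881 nt of exons). It was lower in both depletions, to a like level. KRT8 had 138 and 131 counts in the knockout, 145 and 154 in the knockdown, and 621 and 767 in the control. As CPM these were 6.37 and 6.42 CPM in the knockout, 7.004 and 6.75 CPM in the knockdown, and 31.0 and 37.7 CPM in the control. Each of the 4 depleted libraries lay far below both control libraries, and the 2 depletions lay within 1 CPM of each other. The fitted log2 difference from the control was -2.42 ± 0.17 (SE, n = 2 libraries per group) in the knockout, or 5.36-fold lower, and -2.32 ± 0.17 in the knockdown, or 4.99-fold lower. The knockdown differed from the knockout by 0.10 ± 0.18 on the log2 scale, less than its own SE. The order of the KRT8 levels was thus control, knockdown, knockout, with the last pair not separated beyond error.

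KRT18 encodes keratin 18, the type I partner, and is the most abundant of the 6 (ENSG00000111057.11, chr12:52948871-52952906, plus strand, 3069 nt of exons). Unlike KRT8, it was only a little lower in the knockout. KRT18 had 82.0 and 82.2 CPM in the knockout, 62.9 and 54.8 CPM in the knockdown, and 90.1 and 102 CPM in the control. The 3 groups did not overlap, and the knockdown was the lowest. The log2 difference from the control was -0.23 ± 0.10 in the knockout and -0.71 ± 0.10 in the knockdown, where KRT18 was 1.63-fold lower. The knockdown differed from the knockout by -0.48 ± 0.10. Without control replicate 2 the knockout difference was -0.13, and with a correction for exon length the knockdown lay nearer to the knockout (-0.31).

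The differences of the 2 partners were unequal in size. For every 100 KRT18 counts there were 7.78 and 7.81 KRT8 counts in the knockout, 11.1 and 12.3 in the knockdown, and 34.4 and 37.0 in the control. The groups were apart, and the libraries within each were close. Per kilobase of exon, KRT8 stood at 3.47% and 3.48% of KRT18 in the knockout, 4.97% and 5.50% in the knockdown, and 15.3% and 16.5% in the control. By both measures KRT18 was read more than KRT8 in the control, and the gap was wider in both depletions. The per-kilobase value rests on all annotated exons, 6881 nt for KRT8 and 3069 nt for KRT18. Their coding sequences are closer in length, at 1449 and 1290 nt. Counts of their pseudogene copies, given below, are left out of both measures, so the ratio of the 2 transcripts themselves was not measured.

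KRT8 and KRT18 are neighbours on chromosome 12, unlike most type I keratin genes, which lie on chromosome 17. Their gene models point in opposite directions and overlap by 1084 nt. Counting was by strand (setting 2 in the file headers), so reads of one strand were not given to the gene on the other. The nearest tested protein-coding genes on either side of the pair had smaller log2 differences than KRT8. They are not adjacent to it: ATG101 starts 827941 nt from KRT8, and EIF4B starts 57287 nt from KRT18. ATG101, an autophagy initiation factor, rose in the knockout (0.50 ± 0.12, edgeR adjusted p = 0.00413) and in the knockdown (0.78 ± 0.12, edgeR adjusted p = 1.2e-05). The knockout call was lost without control replicate 1 (edgeR adjusted p = 0.0722) and without knockout replicate 1 (0.0972). EIF4B, a translation initiation factor on the other side, was at -0.21 ± 0.08 in the knockout (edgeR adjusted p = 0.0769) and fell by 0.33 ± 0.08 in the knockdown (edgeR adjusted p = 0.00241).

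**Figure D2:**
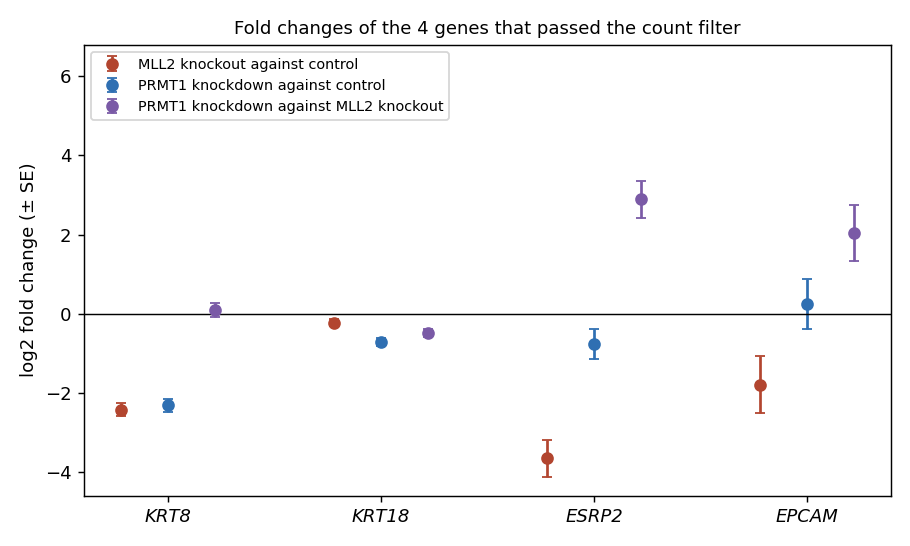
Fitted log2 fold change (vertical axis, bars are SE) of KRT8, KRT18, ESRP2 and EPCAM in the knockout against control, the knockdown against control and the knockdown against knockout, with 2 libraries per group. KRT8 lies near -2.4 in both depletions, while ESRP2 is at -3.65 in the knockout and -0.77 in the knockdown.

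KRT8 and KRT18 have many processed pseudogenes, copies made from their messenger RNAs, and their likeness bears on how the counts can be read. The files list 51 KRT8 pseudogenes, of which 16 had a count and 5 passed the filter, and 67 KRT18 pseudogenes, of which 18 had a count and 4 passed. A stretch of the KRT8 coding sequence (bases 601 to 660 of 1449 in KRT8-201) shows how alike the gene and its copies are, beside KRT8P46, a copy on chromosome 4 (chr4:102728746-102730171, minus strand), and KRT8P39, a copy on chromosome 12 (chr12:68705634-68707066, plus strand). The bases are those of GRCh38 with GENCODE 29. Capitals mark in each copy the bases that differ from KRT8, and in KRT8 the bases where either copy differs.
KRT8: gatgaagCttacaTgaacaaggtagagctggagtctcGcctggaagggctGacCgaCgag
KRT8P46: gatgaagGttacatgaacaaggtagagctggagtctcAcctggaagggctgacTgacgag
KRT8P39: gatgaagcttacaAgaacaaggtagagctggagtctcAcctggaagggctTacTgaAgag
KRT8P46 differs at 3 of these 60 bases and KRT8P39 at 5. Over the whole aligned coding sequence, identity to KRT8 was 91.9% for KRT8P46 (1422 nt aligned), 90.8% for KRT8P39 (1432 nt), 90.7% for KRT8P12 (1385 nt) and 95.8% for KRT8P33 (1420 nt). KRT18P31 was 90.6% identical to KRT18 over 1287 nt. The authors kept reads with a mapping quality of at least 10, so a read that could belong to the gene or to a copy may be missing from both.

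The summed pseudogene counts were not lower where KRT8 was, though single copies differed. KRT8 pseudogenes summed to 8.77 and 9.996 CPM in the knockout, 13.2 and 18.7 CPM in the knockdown, and 9.42 and 8.65 CPM in the control. They made up 57.9% and 60.9% of all counts of the gene and its copies in the knockout, 65.4% and 73.5% in the knockdown, and 23.3% and 18.7% in the control. Of the 5 tested copies, 0 were called in the knockout by edgeR and DESeq2 called 0. An unadjusted p under 0.05 was seen for 1, in the lower direction. The log2 differences of the 5 copies there ran from -1.13 to 0.81. KRT8P46 had 46 and 45 counts in the knockout and 71 and 68 in the control (-0.67 ± 0.32, edgeR adjusted p = 0.141). KRT8P12 rose in the knockdown (0.75 ± 0.31, edgeR adjusted p = 0.0494), a call lost with DESeq2 (adjusted p = 0.0731), without control replicate 2 (0.50, edgeR adjusted p = 0.302) and without knockdown replicate 1 or knockdown replicate 2 (edgeR adjusted p = 0.0893 and 0.0947). KRT8P46 was higher in the knockdown than in the knockout (1.30 ± 0.31, edgeR adjusted p = 0.00191). With all copies added to the gene, KRT8 was 2.75-fold lower in the knockout (-1.46 ± 0.14) and 1.90-fold lower in the knockdown (-0.92 ± 0.13), and the knockdown lay 0.54 ± 0.14 above the knockout. The KRT8 difference thus held its direction but lost part of its size, and whether any of those reads came from KRT8 itself was not tested.

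KRT18 was less exposed to its copies. KRT18 pseudogenes made up 4.93% and 4.71% of the summed counts in the knockout, 7.20% and 15.7% in the knockdown, and 3.83% and 3.08% in the control. Knockdown replicate 2 stood apart, with 10.2 CPM of KRT18 pseudogenes against 4.88 CPM in knockdown replicate 1. Of the 4 tested copies, KRT18P31 rose in the knockdown (1.59 ± 0.60, edgeR adjusted p = 0.0342), a call lost without control replicate 1 (1.21, edgeR adjusted p = 0.187) and without knockdown replicate 2 (0.90, edgeR adjusted p = 0.410). With the copies added, the KRT18 differences were -0.21 in the knockout and -0.58 in the knockdown.

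**Figure D3:**
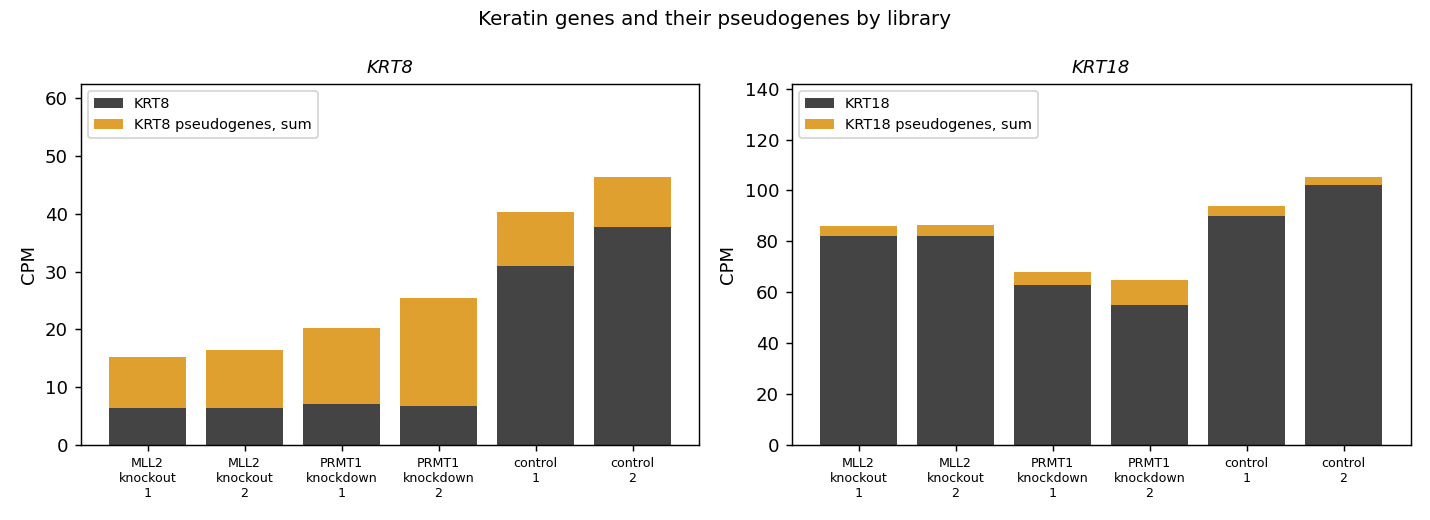
Levels in CPM (vertical axes from 0) of KRT8 and KRT18 in each library (dark), with the summed CPM of their pseudogenes stacked on top (orange). The KRT8 bars are shorter in the 4 depleted libraries and the pseudogene parts are not, at 8.77 to 18.7 CPM in those and 8.65 to 9.42 CPM in the control.

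KRT19 encodes keratin 19, the other type I partner of keratin 8 in simple epithelia (ENSG00000171345.13, chr17:41523617-41528308, minus strand). It was barely read, with 0 and 2 counts in the knockout, 0 and 1 in the knockdown, and 12 and 0 in the control. All 12 control counts came from replicate 1, so the groups overlap. The ratio of CPM was 0.160 for the knockout against the control (95% exact interval 0.0174 to 0.719) and 0.0774 for the knockdown (0.00181 to 0.523). Those intervals cover counting error only and say nothing of the difference between the control libraries. At 3 counts per library, the limit for a count of 0 is 0.132 to 0.150 CPM at this depth. The coding sequences of KRT19 and KRT18 are 73.3% identical over 876 nt, and of the 5 KRT19 pseudogenes 1 had a count.

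Few other keratins were read beside KRT8 and KRT18. Of 27 other keratin genes, 20 had no count in any library and 3 passed the filter. Of these, 0 were called in the knockout by edgeR, 1 had an unadjusted p under 0.05, and DESeq2 called 0. KRT17 is a type I keratin of stressed and appendage epithelia. On the side of higher coordinates it is the nearest tested protein-coding gene to KRT19, with starts 95825 nt apart and KRT14 between them. In the knockdown KRT17 fell by 3.46 ± 1.18 (edgeR adjusted p = 0.0199), from low counts of 2 and 1 in the knockdown and 25 and 8 in the control. That call was lost without control replicate 1 (edgeR adjusted p = 0.278), without knockdown replicate 1 (0.0624) and without knockdown replicate 2 (0.121).

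ESRP2 encodes one of the splicing regulators (ENSG00000103067.14, chr16:68229033-68238102, minus strand, 5189 nt of exons), and it showed the greatest difference between the depletions among the 6 genes. ESRP2 had 7 and 8 counts in the knockout, 49 and 68 in the knockdown, and 107 and 77 in the control. As CPM these were 0.323 and 0.392 CPM in the knockout, 2.37 and 2.98 CPM in the knockdown, and 5.33 and 3.78 CPM in the control. The order was control, knockdown, knockout, and no groups overlapped. ESRP2 was 12.6-fold lower in the knockout than in the control (-3.65 ± 0.46). In the knockdown the difference from the control was -0.77 ± 0.37, and -0.51 without control replicate 1. ESRP2 was 7.40-fold higher in the knockdown than in the knockout (2.89 ± 0.47).

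ESRP2 shares its locus with other transcripts. ENSG00000262160, an unnamed RNA gene on the same strand, overlaps the ESRP2 gene model by 113 nt. It had 1 and 9 counts in the knockout, 2 and 7 in the knockdown, and 21 and 31 in the control. It fell by 2.62 ± 0.93 in the knockdown (edgeR adjusted p = 0.0255), a call lost without control replicate 1 (edgeR adjusted p = 0.0773), control replicate 2 (0.202) or knockdown replicate 1 (0.167), and stood at -2.39 ± 0.92 in the knockout (edgeR adjusted p = 0.0675). Its counts in the 2 depletions overlapped, where those of ESRP2 did not. NFATC3, a calcium-regulated transcription factor on the opposite strand, overlaps ESRP2 by 227 nt and rose in the knockout (0.51 ± 0.11, edgeR adjusted p = 0.00151) and in the knockdown (0.65 ± 0.11, edgeR adjusted p = 3.4e-05). PLA2G15, a lysosomal phospholipase on the other side, was at 0.24 in the knockout and 0.33 in the knockdown and was not called by edgeR (adjusted p = 0.380 and 0.143).

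ESRP1 encodes the paralogue of ESRP2, with coding sequences that are 72.5% identical over 1154 nt (ENSG00000104413.18, chr8:94641074-94707466, plus strand, 4875 nt of exons). It was close to the limit of detection, with 0 and 1 counts in the knockout, 2 and 1 in the knockdown, and 4 and 9 in the control. No depleted library reached the lower control library. The ratio of CPM was 0.0739 for the knockout against the control (95% exact interval 0.00174 to 0.492) and 0.214 for the knockdown (0.0392 to 0.780). As for KRT19, these intervals pool the counts of a group and cover counting error only. They leave out the spread between libraries and are not a test of the difference. Between the depletions the ratio of 2.90 had an interval from 0.233 to 152, so no order could be given. The nearest tested protein-coding genes on either side of ESRP1 were DPY19L4 and VIRMA, with starts 78629 and 153385 nt away. DPY19L4 fell in the knockout (-0.71 ± 0.11, edgeR adjusted p = 0.000136) and in the knockdown (-0.31 ± 0.11, edgeR adjusted p = 0.0261). The knockdown call was lost with DESeq2 (adjusted p = 0.0733), without control replicate 1 (edgeR adjusted p = 0.231) and without knockdown replicate 2 (0.139). VIRMA, a subunit of the RNA adenosine methyltransferase complex, rose in the knockdown (0.61 ± 0.09, edgeR adjusted p = 1.7e-05). In the knockout VIRMA fell (-0.29 ± 0.10, edgeR adjusted p = 0.0341), a call lost without control replicate 1 (-0.16, edgeR adjusted p = 0.433), knockout replicate 1 (-0.23, 0.295) or knockout replicate 2 (-0.34, 0.0985).

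Genes with exons known to be regulated by ESRP proteins were called at shares near those of all genes tested. Of 23 such genes, all of which were tested, 2 were higher and 2 lower in the knockout by edgeR, or 17.4% beside 22.4% of all genes tested, with a median log2 difference of 0.01 beside -0.01 over all genes tested. In the knockdown 7 were higher and 4 lower, or 47.8% beside 47.4% of all genes tested, with a median of 0.15 beside -0.04 over all genes. ARFGAP2, a regulator of vesicle coats, fell in the knockout (-0.75 ± 0.09, edgeR adjusted p = 3.5e-06). FGFR2 stood at 65.4 and 61.5 CPM in the knockout, 41.4 and 40.3 CPM in the knockdown, and 66.4 and 62.7 CPM in the control. FGFR2 fell in the knockdown (-0.66 ± 0.10, edgeR adjusted p = 1.18e-05), as did STX2, a membrane fusion protein (-0.74 ± 0.10, edgeR adjusted p = 4.06e-06). PLEKHA1 rose in the knockdown (0.61 ± 0.09, edgeR adjusted p = 8.73e-06), or 0.27 with the exon length correction. Counts per gene do not show which exons were used, so splicing itself was not measured here.

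Other regulators of epithelial and mesenchymal exons moved in both directions. Of 24 listed, 18 were tested, with 3 higher and 3 lower in the knockout and 5 higher and 2 lower in the knockdown by edgeR. The shares called were 33.3% in the knockout and 38.9% in the knockdown, beside 22.4% and 47.4% of all genes tested. KHDRBS3, a STAR family RNA-binding protein, fell in the knockout (-1.08 ± 0.13, edgeR adjusted p = 8.16e-06) and in the knockdown (-1.13 ± 0.13, edgeR adjusted p = 5.93e-07). MBNL1, of the muscleblind family, rose in the knockout (0.52 ± 0.09, edgeR adjusted p = 0.000439), and HNRNPM, which opposes ESRP1 at shared exons, rose there too (0.43 ± 0.08, edgeR adjusted p = 0.000693). MBNL3 fell in the knockdown (-1.23 ± 0.11, edgeR adjusted p = 2.34e-08), where CELF1 rose (0.72 ± 0.09, edgeR adjusted p = 8.1e-07).

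EPCAM (ENSG00000119888.11, chr2:47345158-47387601, plus strand, 2430 nt of exons) was at a low level, and its control libraries were far from each other. EPCAM had 8 and 8 counts in the knockout, 44 and 24 in the knockdown, and 13 and 41 in the control. As CPM these were 0.369 and 0.392 CPM in the knockout, 2.13 and 1.05 CPM in the knockdown, and 0.648 and 2.02 CPM in the control. Knockdown and control overlapped, and the knockout lay below both. The difference from the control was -1.79 ± 0.71 in the knockout, but -0.76 without control replicate 2. In the knockdown it was 0.25 ± 0.63, and its sign turned without knockdown replicate 1 (-0.35) and without control replicate 1 (-0.35). EPCAM was 4.11-fold higher in the knockdown than in the knockout (2.04 ± 0.70), or 1.44 on the log2 scale without knockdown replicate 1.

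The divergent transcript EPCAM-DT starts 84 nt from the EPCAM start and had 2 and 0 counts in the knockout, 3 and 2 in the knockdown, and 7 and 3 in the control. CALM2, a calmodulin gene whose start coordinate lies 185075 nt from that of EPCAM, was at 0.23 in the knockout (edgeR adjusted p = 0.0813). CALM2 fell in the knockdown (-0.31 ± 0.09, edgeR adjusted p = 0.0111), a call lost without control replicate 1 (-0.28). The difference was -0.48 without knockdown replicate 1 and -0.16 without knockdown replicate 2.

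Proteins that cleave EPCAM, relay its signal or bind it in the membrane were listed as 17 genes, of which 15 were tested. In the knockout 1 was higher and 3 lower by edgeR, or 26.7% called beside 22.4% of all genes tested. In the knockdown 4 were higher and 7 lower, or 73.3% beside 47.4%. The list was written with earlier results of these data known, so nothing is read from these shares. CLDN7, a tight junction claudin that binds EPCAM, had 4 and 4 counts in the knockout, 7 and 3 in the knockdown, and 33 and 32 in the control. CLDN7 fell in the knockout (-3.04 ± 0.82, edgeR adjusted p = 0.0101), a call that was lost without either control or either knockout replicate (edgeR adjusted p from 0.0705 to 0.102). CD9, a tetraspanin partner, fell in the knockdown (-1.01 ± 0.12, edgeR adjusted p = 1.08e-06), and so did the protease BACE1 (-1.44 ± 0.21, edgeR adjusted p = 9.81e-06). The sheddase ADAM10 rose in the knockdown (0.47 ± 0.09, edgeR adjusted p = 0.000282), or 0.26 with the exon length correction.

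On a common scale per kilobase of exon, the 6 genes spanned a wide range in the control. KRT18 averaged 31.3 CPM per kb, at or above 92.0% of genes tested, and KRT8 averaged 4.99 CPM per kb, at or above 59.7%. ESRP2 averaged 0.879 CPM per kb (27.3%), EPCAM 0.548 (20.5%), KRT19 0.128 (5.50%) and ESRP1 0.0658 (2.40%). In the knockout the per-kilobase level of ESRP2 was 0.0623 and 0.0755 CPM per kb, and that of EPCAM was 0.152 and 0.161. In the knockdown ESRP2 stood at 0.456 and 0.574 CPM per kb and EPCAM at 0.875 and 0.433. In the control ESRP2 was above EPCAM in replicate 1, at 1.03 against 0.267 CPM per kb, and below it in replicate 2, at 0.729 against 0.829 CPM per kb.

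The genes whose levels ran most like each of the 4 were found by Pearson's r of log2(CPM + 0.5) over the 6 libraries, which form 3 groups, so r mostly restates the order of 3 levels. For KRT8 they were DIPK1C, INTS11 and HHAT (r = 0.998 for each). For KRT18 they were RGS16 (r = 0.998), TARS1 (0.997) and FAU (0.997), and for ESRP2 GFI1 (0.995), PKP3 (0.995) and TPD52L1 (0.994). For EPCAM they were TMED1 (0.987), ITM2B (0.983) and ZNF572 (0.982). INTS11, an Integrator subunit, stood at 58.5 and 59.0 CPM in the knockout, 58.7 and 60.0 CPM in the knockdown, and 76.4 and 80.3 CPM in the control, the KRT8 order on a smaller scale. GFI1, a transcriptional repressor, stood at 5.17 and 5.39 CPM in the knockout, 13.5 and 13.9 CPM in the knockdown, and 18.2 and 15.7 CPM in the control, which is the ESRP2 order.

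Of the proteins that tie keratin filaments to junctions and to other filaments, 16 genes were listed and 14 tested. In the knockout 1 was higher and 4 lower by edgeR, or 35.7% called beside 22.4% of all genes tested. In the knockdown 7 were higher and 3 lower, or 71.4% beside 47.4%. Nothing is read from these shares, since the list was written with earlier results of these data known. PKP3, a desmosomal plakophilin, ran like ESRP2, with 0 and 0 counts in the knockout, 26 and 49 in the knockdown, and 98 and 68 in the control. PKP3 fell in the knockout (edgeR adjusted p = 1.94e-06) and was at least 28.8-fold lower there, with the knockout set at 3 counts per library. EPPK1, epiplakin, fell in the knockout (-1.55 ± 0.31, edgeR adjusted p = 0.00108), while PNN, a nuclear and desmosome-associated protein, rose (0.41 ± 0.08, edgeR adjusted p = 0.00114). The linkers DSP (0.73 ± 0.09, edgeR adjusted p = 1.58e-06) and DST (1.01 ± 0.09, edgeR adjusted p = 9.85e-09) rose in the knockdown, where KRT8 and KRT18 were lower. The value of DST was 0.41 with the exon length correction. DNAJB6, a chaperone that binds keratin 18, rose there too (0.77 ± 0.08, edgeR adjusted p = 1.6e-07).

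Epithelial junction and surface genes changed in both directions. Of 29 junction and surface genes, 20 were tested, with 2 higher and 8 lower in the knockout and 6 higher and 8 lower in the knockdown by edgeR. Of these tested genes 50% were called in the knockout and 70% in the knockdown, beside 22.4% and 47.4% of all genes tested. Their median log2 difference was -0.78 in the knockout beside -0.01 over all genes tested, and -0.63 in the knockdown beside -0.04. This list and that of transcription factors below were written with earlier results known, so nothing is read from their shares or medians. SPINT2, a protease inhibitor, fell in the knockout (-1.37 ± 0.10, edgeR adjusted p = 1.06e-08) and in the knockdown (-1.01 ± 0.10, edgeR adjusted p = 7.47e-08). LSR, a tricellular junction protein, fell in the knockout (-1.66 ± 0.27, edgeR adjusted p = 0.000149), whereas OCLN, occludin, rose in the knockdown (1.14 ± 0.15, edgeR adjusted p = 2.54e-06). Of 20 epithelial transcription factors, 10 were tested. In the knockout 4 were higher and 1 lower, with a median of 0.35 beside -0.01 over all genes tested. In the knockdown 5 were higher and 1 lower, with a median of 0.62 beside -0.04. Of these factors 50% were called in the knockout and 60% in the knockdown, beside 22.4% and 47.4% of all genes tested. TFAP2A rose in both (0.95 ± 0.20, edgeR adjusted p = 0.0015 in the knockout, and 1.56 ± 0.19, edgeR adjusted p = 1.17e-06 in the knockdown). GRHL1, a grainyhead factor, rose in the knockdown (1.22 ± 0.18, edgeR adjusted p = 1.1e-05) and in the knockout (0.77 ± 0.18, edgeR adjusted p = 0.00431), where the call was lost without control replicate 1 (0.46, edgeR adjusted p = 0.120).

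Repressors of epithelial genes were 9 in number, all tested, with 4 higher and 0 lower in the knockout (0 lower also at an unadjusted p under 0.05 and by DESeq2) and 2 higher and 1 lower in the knockdown by edgeR. The shares called were 44.4% in the knockout and 33.3% in the knockdown, beside 22.4% and 47.4% of all genes tested. Here and over all lists nothing is read from the shares, as earlier results were known when the lists were written. ZEB2 rose in the knockdown (1.12 ± 0.11, edgeR adjusted p = 7e-08), and SNAI2 fell there (-1.18 ± 0.12, edgeR adjusted p = 9.91e-08). In the knockout ZEB2 rose as well (0.40 ± 0.11, edgeR adjusted p = 0.0159), a call that was lost without any 1 of the control or knockout libraries (edgeR adjusted p from 0.0841 to 0.120). The knockout call of TCF4, an E protein (0.35 ± 0.10, edgeR adjusted p = 0.015), was likewise lost without any 1 of them (edgeR adjusted p from 0.0627 to 0.151). That of TCF3, another E protein (0.40 ± 0.12, edgeR adjusted p = 0.0171), was lost without each of them but knockout replicate 1 (edgeR adjusted p from 0.0819 to 0.260). Over all lists, 123 of 177 genes were tested, with 17 higher and 25 lower in the knockout (34.1% called, beside 22.4% of all genes tested), and 38 higher and 31 lower in the knockdown (56.1% called, beside 47.4%). In the knockout 42 of these genes were called with all libraries, 22 without control replicate 1, 17 without control replicate 2, 20 without knockout replicate 1 and 23 without knockout replicate 2. Without either knockdown replicate, which takes no part in that comparison but in the estimate of the spread, 51 were called.

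**Figure D4:**
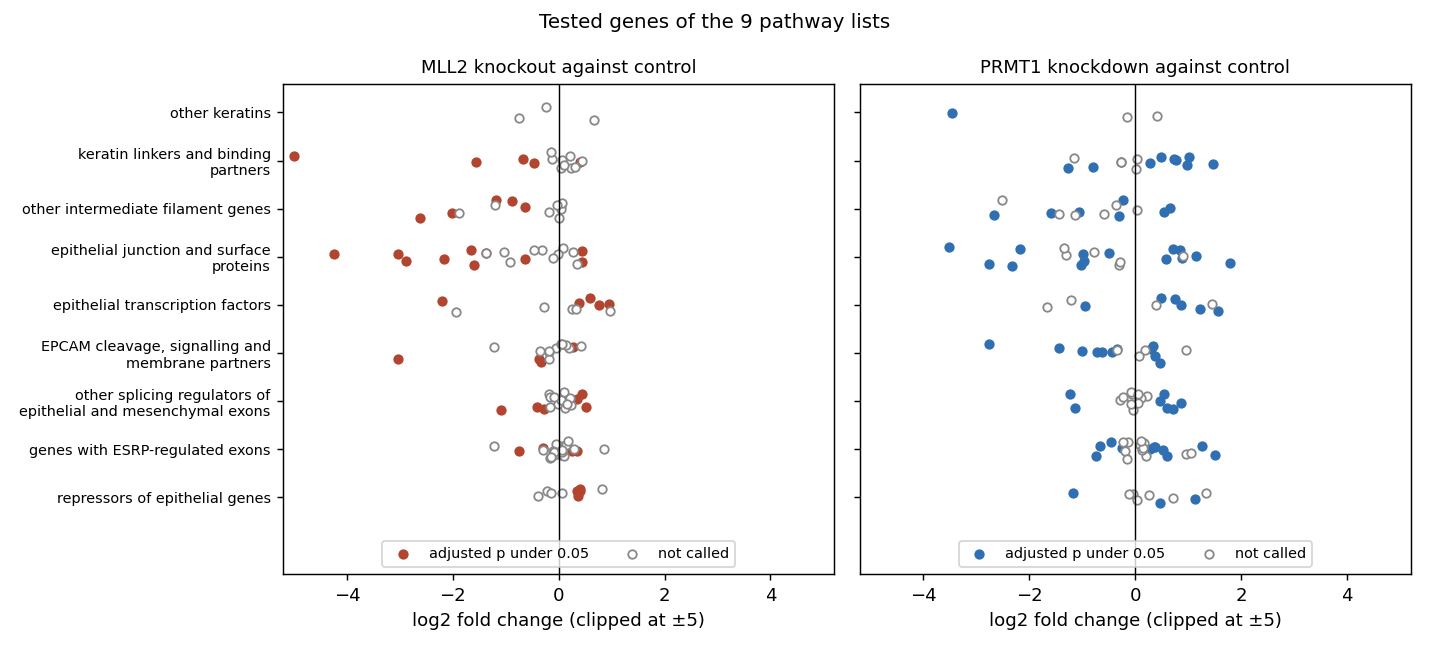
Fitted log2 fold change (horizontal axes, values beyond 5 drawn at 5) of the tested genes of 9 pathway lists in the knockout (left) and the knockdown (right) against control, filled where the edgeR adjusted p was under 0.05. The genes at the far left in the knockout include PKP3, drawn at -5 with 0 counts in both knockout libraries. Each list holds genes on both sides of 0 in the knockdown.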

How the data were processed

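Total RNA of 6 libraries of 293T cells was sequenced after TRIzol extraction with a stranded ribosome-depleted kit, per the labels. The deposited values are raw read counts by gene, which the authors made with featureCounts (version 2.0.1 per the file headers, 1.5.0-p1 per the submitters' processing notes), with GENCODE 34, a minimum mapping quality of 10 and strand setting 2. Per the submitters' processing notes, reads were trimmed with Trim Galore 0.6.10 and aligned to hg38 with STAR 2.7.5a.

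Of 60669 genes, 60370 had a symbol. The 17575 genes kept by filterByExpr were scaled by TMM and fitted with a term per group in edgeR 4.0.16 (glmQLFit, glmQLFTest, R 4.3.3, 3 residual degrees of freedom). P-values were adjusted over all of them by Benjamini-Hochberg, with calls under 0.05. SE is the log2 fold change over the root of F. The fit was also run on simulated data with known changes, from which no value is given. CPM ratios of genes that failed the filter have exact binomial intervals (95%) on the pooled counts of each group, which cover counting error only.

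The 6 genes and the 9 lists were chosen with earlier results of these data known. Named genes are the 6 genes, the targets, up to 3 called genes with the smallest adjusted p per list and depletion, neighbours and pseudogenes, and 3 genes most like each. A result for 1 named gene is not reported here. No 2 libraries of a group agreed within sampling noise. Alternatives were DESeq2 1.42.0, other scalings, filters and fits, exon length correction, a replicate block and leaving out each library.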

Additional observations from a re-analysis of the deposited data

How the results depend on the processing

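Without each library in turn, genes called in the knockout ran from 1908 to 5492 (3941 with all libraries) and list genes called from 17 to 51 (42 with all). In the knockout against control, log2 differences ran from -2.56 to -2.27 for KRT8, -0.31 to -0.13 for KRT18, -3.88 to -3.38 for ESRP2 and -2.38 to -0.76 for EPCAM. EPCAM in the knockdown against control ran from -0.35 to 1.28 (0.25 with all). In the knockdown against the knockout, KRT8 ran from 0.0695 to 0.13, KRT18 from -0.59 to -0.39, ESRP2 from 2.71 to 3.03 and EPCAM from 1.44 to 2.46. With the exon length correction KRT18 was at -0.51 in the knockdown against control and -0.31 against the knockout, and the values were -0.51 and -0.31 with the replicate block added. Median log2 changes of genes under 1000 nt and over 8000 nt were -0.45 and 0.16 in the knockdown and -0.05 and 0.03 in the knockout. With pseudogene counts added, KRT8 was at -1.46 in the knockout, -0.92 in the knockdown and 0.54 between them, and KRT18 at -0.38 between them. Why these values moved was not tested, apart from fewer libraries and added reads. Every other alternative kept the direction of each of the 4 genes, within the spread between replicates.

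The labels link same-numbered libraries by number only and do not say if they were handled together. Correlations of their deviations were 0.076 (knockout and control), 0.047 (knockdown and control) and 0.203 (knockdown and knockout). Whether a batch was shared was not tested. The replicate block called 4512, 8710 and 7529 genes (knockout, knockdown, and knockdown against knockout), beside 3941, 8337 and 7154 without it. With DESeq2 3693, 7817 and 6614 genes were called. KRT19 and ESRP1 gave no fitted value. With 2 libraries per group, counts of 0 to 12 per library in KRT19 and ESRP1 limit what can be said of them.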

Other observations

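Intermediate filament genes other than keratins, which build the cytoskeleton of neurons, mesenchyme and muscle and the nuclear lamina, were also read. Of 15 listed, 13 were tested, with 0 higher and 5 lower in the knockout (0 higher also at an unadjusted p under 0.05 and by DESeq2) and 2 higher and 5 lower in the knockdown by edgeR. The shares called were 38.5% in the knockout and 53.8% in the knockdown, beside 22.4% and 47.4% of all genes tested. This list too was written with earlier results known, so nothing is read from its shares. NEFL, the light neurofilament subunit, stood at 156 and 153 CPM in the knockout, 56.6 and 53.2 CPM in the knockdown, and 346 and 351 CPM in the control. NEFL fell by 1.18 ± 0.08 in the knockout (edgeR adjusted p = 2.11e-09) and by 2.67 ± 0.09 in the knockdown (edgeR adjusted p = 2.56e-15). NEFM, the medium subunit, stood at 20.6 and 22.4 CPM in the knockout, 21.6 and 36.3 CPM in the knockdown, and 92.8 and 82.1 CPM in the control. NEFM fell in the knockout (-2.02 ± 0.16, edgeR adjusted p = 1.97e-08) and in the knockdown (-1.59 ± 0.16, edgeR adjusted p = 5.01e-08). VIM, vimentin, the filament protein of mesenchymal cells, averaged 509 CPM in the knockout, 722 CPM in the knockdown and 494 CPM in the control, and rose in the knockdown (0.55 ± 0.08, edgeR adjusted p = 8.6e-06). PRPH, peripherin, fell in the knockout (-2.63 ± 0.67, edgeR adjusted p = 0.00701), a call that was lost without knockout replicate 2 (edgeR adjusted p = 0.0745), with a log2 difference of -4.59 without knockout replicate 1.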
